A study of Schizosaccharomyces pombe with 28 samples.

Results

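The genes described here encode the proteins of the cytoplasmic ribosome of fission yeast, Schizosaccharomyces pombe. They were taken from the arrays by name alone, as every feature named rpl (large, 60S subunit) or rps (small, 40S subunit) followed by a digit, so the rule itself used no measured value, although the family was picked with earlier results of these data known. Of 4886 coding features (open reading frames, ORFs) 124 qualified, and of 4962 intergenic features (IGRs, named after a gene) 131 did, which made 255 of 9848 features in all. A further 5 ORF and 5 IGR names were marked missing on the arrays and left out. The ORF members were 71 features of the 60S subunit and 53 of the 40S subunit, and 1 gene, rpl20-1, had 2 of them.

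Every array compared 2 DNA pools, one in Cy3 and one in Cy5. For the histone marks, chromatin immunoprecipitated for H3K4me2 or H3K9me2 came from cells with the swm1 gene deleted (swm1Δ) and from wild type (wt), with 2 arrays for each mark and region and the dyes exchanged between them. The methods state that the 2 arrays held independent immunoprecipitates, so the p-values below rest on the spread between such arrays. The test used, limma, draws the spread of each feature towards that of all features. The 2 arrays also differ in dye orientation, so their spread includes any effect of the dyes. For the remodellers, DNA bound to Hrp1-myc or Hrp3-myc, each a protein carrying a myc tag, was compared with input DNA on 3 arrays per region, all labelled with the bound DNA in Cy3. The labels do not say whether these 3 arrays came from separate cultures, and no array of an untagged strain was analysed here. A last set of 3 arrays per region was labelled as histone H3 immunoprecipitate against input in hrp1-deleted cells, with no wild-type partner.

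Ribosomal protein genes are among the most strongly transcribed genes of a growing yeast cell, and their output has to be matched so that the subunits assemble in equal number. In fission yeast many of their promoters carry the HomolD box, which takes the place of a TATA box, and the HomolE box next to it. Swm1 is one of the fission yeast relatives of the human demethylase LSD1. Dimethylation of H3 lysine 4 marks transcribed genes, and dimethylation of lysine 9 marks heterochromatin. Hrp1 and Hrp3 are ATP-dependent nucleosome remodellers of the Chd1 type.

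Of 133 names on the arrays 120 matched a gene of the RefSeq annotation of the ASM294v3 assembly, giving 119 genes. Names without a single match were rpl4, rpl7-3, rpl7a, rpl13a-1, rpl13a-2, rpl17, rpl20, rpl21, rpl24-3, rpl27a, rpl30, rpl34 and rpl37. These are members by their array name alone. The build behind the array design is not given in the sources used here, so coordinates are those of RefSeq. These genes were short, with a median coding length of 447 bases against 1137 over 5112 protein-coding genes, and 50.4% had an intron in the coding sequence against 46.7%. A window from 250 bases before to 50 after the gene start was searched on both strands for the HomolD letters CAGTCACA and the HomolE letters CCCTACCC, which can overlap by no more than 1 base. HomolD was found at 75 of the 119 genes (63.0%) and at 137 of all 5112 (2.68%). HomolE was found at 43 (36.1%) and at 81 of all (1.58%), and both together at 23 (19.3%) against 33 (0.646%). The median position of the first base was -51.0 for HomolD and -69.5 for HomolE, counted from the gene start. A match is a description of letters only, and a window with no more than a near match was counted as without the box. The windows of rpl37a-2, rpl22 and rpl8-2 printed below hold CAGTCACG on either strand, which differs from HomolD in its last letter.

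The following 120 bases end 1 base before the RefSeq gene start and read 5′ to 3′ along the gene. They are shown because the results below turn on these genes, and because the rpl8 genes are 3 copies that differ in their exact matches. Capitals mark HomolD or HomolE.
rps3, chrII:4239340-4239459, minus strand, HomolD read on the opposite strand: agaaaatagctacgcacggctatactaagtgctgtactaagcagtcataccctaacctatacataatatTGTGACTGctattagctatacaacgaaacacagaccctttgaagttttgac
rpl37a-1, chrII:259991-260110, minus strand, HomolD: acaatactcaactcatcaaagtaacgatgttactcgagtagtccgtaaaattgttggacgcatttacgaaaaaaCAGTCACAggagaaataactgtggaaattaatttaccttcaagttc
rpl37a-2, chrII:1513752-1513871, minus strand, HomolE: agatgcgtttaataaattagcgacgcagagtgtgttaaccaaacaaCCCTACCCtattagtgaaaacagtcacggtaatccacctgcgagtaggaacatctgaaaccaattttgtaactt
rpl17-2, chrIII:482831-482950, minus strand, HomolD: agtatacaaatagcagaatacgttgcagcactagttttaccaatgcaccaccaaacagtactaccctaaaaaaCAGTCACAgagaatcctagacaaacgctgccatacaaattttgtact
rpl22, chrI:5314704-5314823, plus strand, HomolE read on the opposite strand: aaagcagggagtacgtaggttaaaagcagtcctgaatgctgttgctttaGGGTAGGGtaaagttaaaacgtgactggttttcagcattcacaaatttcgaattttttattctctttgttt
rpl8-1, chrI:4251438-4251557, minus strand, HomolD: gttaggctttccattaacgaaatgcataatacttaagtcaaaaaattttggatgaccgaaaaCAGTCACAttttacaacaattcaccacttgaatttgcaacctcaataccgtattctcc
rpl8-2, chrII:1726545-1726664, plus strand, neither motif: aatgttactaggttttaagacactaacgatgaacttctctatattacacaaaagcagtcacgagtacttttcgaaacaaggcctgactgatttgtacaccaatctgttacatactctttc
rpl8-3, chrII:601132-601251, plus strand, HomolE and then HomolD: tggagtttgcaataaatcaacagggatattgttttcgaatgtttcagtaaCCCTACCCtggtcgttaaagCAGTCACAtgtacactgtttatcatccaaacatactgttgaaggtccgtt
In these windows HomolD of rps3 began at -51 and HomolE of rpl22 at -71, while in rpl8-3 HomolE began at -70 and HomolD at -50.

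Some arrays stood apart and are named before the results. The deleted gene itself, SPBC146.09c, lay at -4.04 and -3.76 on the 2 H3K4me2 ORF arrays (log2 of swm1Δ over wt), as a deletion of that gene in the labelled strain would give. On the H3K9me2 ORF arrays it lay at 0.03 and -1.44 and was not called, so it checks no H3K9me2 label. The dye label of the first H3K9me2 ORF array (B1) was opposite to that of its own IGR part. Its deposited ratios followed Cy3 over Cy5 with a Spearman correlation of -0.80, so wt was read in Cy3, and the direction of H3K9me2 is therefore only likely. One Hrp array per set ran against the other 2, and on exactly that array of each set the deposited values followed Cy5 more closely than Cy3. For Hrp3 in ORFs the first array correlated with the others at -0.23 and -0.28 while those correlated at 0.76. The counts of members called are given with all 3 arrays, without that array and with its sign turned, and other Hrp values are given without it where the text says so. The settings without it were chosen after seeing the data.

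The arrays labelled Hrp1-myc and those labelled H3 in hrp1-deleted cells held the same measurements. After conversion from log2 to log10, at least 99.7% of deposited values were equal within 0.01 for the matching arrays, over 9560 ORF and 9270 IGR spots, against 2.71% to 4.43% for any other pairing. Which of the 2 labels is right cannot be told apart here, and the values are called Hrp1-labelled below. The H3 labels place the bound DNA of 1 array per region in Cy5, which is the same as turning the sign of the array that ran against the others.

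The H3K4me2 ratio of swm1Δ over wt lay below that of most other genes over the coding regions of ribosomal protein genes, though not below the median ratio of other genes under 1000 bases. The ratios are centred on each array, so they place genes against one another and give no absolute gain or loss. The median log2 ratio of the 124 members was -0.34 on the first array (C1) and -0.28 on the second (C2), where the other 4762 ORFs were at -0.01 on both. Of the members 107 had a mean below 0, beside 51.5% of all ORFs. Both arrays were below 0 for 75 members (60.5%, beside 39.4% of all ORFs) and both above 0 for only 7 (5.65%, beside 37.2%).

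By limma with Benjamini-Hochberg adjustment over all ORFs, 19 members fell (15.3%, beside 12.8% of all ORFs), and 0 rose, beside 15.7% of all ORFs. The share that fell was thus near that of all ORFs, while no member was among the ORFs that rose. At an unadjusted p under 0.05 the count was 33 in either direction (26.6%, beside 42.1% of all ORFs). The rule of the methods, a ratio of at least 2.0 or at most its inverse in 3 of 4 spots, passed 1 member lower (all ORFs 2.09%) and 0 higher (all ORFs 3.32%).

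**Figure D1:**
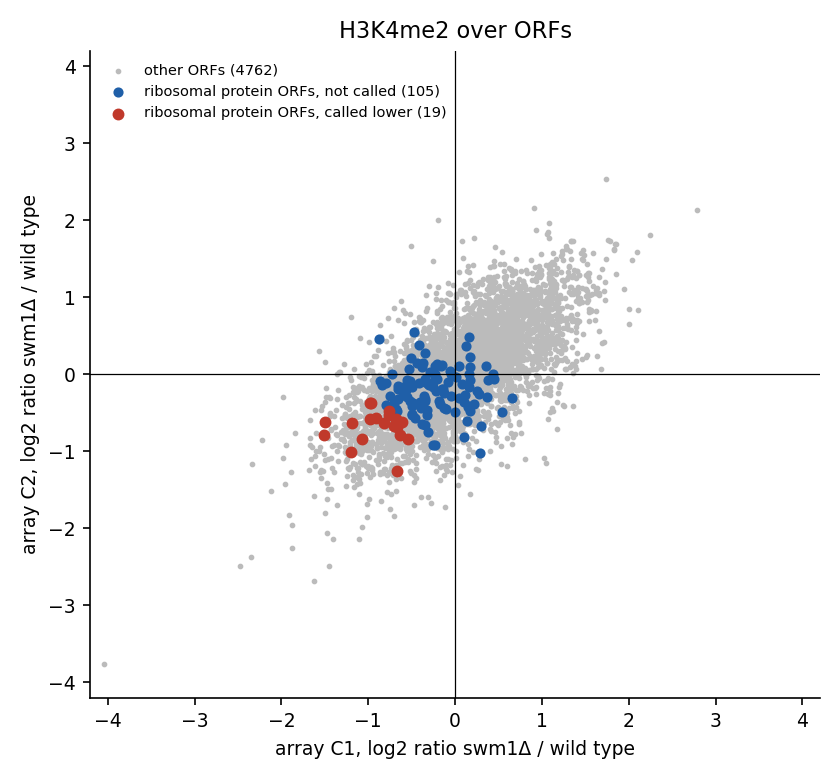
Log2 ratio of H3K4me2 in swm1Δ over wt on array C1 (horizontal) against array C2 (vertical) for each ORF, with the 124 ribosomal protein genes marked over the other 4762. The marked points lie mostly in the lower left, and only 7 lie above 0 on both arrays.

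The member that passed both tests was rps3, which encodes the uS3 protein of the small subunit at the entry of the mRNA channel. Its ratio was -1.20 on C1 and -1.01 on C2, a mean of -1.10 ± 0.14 (SD, n = 2 arrays), or 2.15 times lower in swm1Δ relative to the array as a whole (adjusted p = 0.00256). Both arrays placed it in the lowest twentieth of all ORFs, at percentile ranks of 0.029 and 0.038 on a scale from 0 to 1.

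The largest mean fall was that of rpl37a-1, with -1.51 on C1 and -0.79 on C2 (mean -1.15 ± 0.51, adjusted p = 0.00299). Its paralogue rpl37a-2, the other copy of the eL43 protein of the large subunit, gave -1.49 and -0.62 (mean -1.06 ± 0.61, adjusted p = 0.00572). The copies were therefore low on the same array to nearly the same degree, and their coding sequences are 78.2% identical, so that cross-hybridisation between their probes was not tested. The exact letters of HomolD were found upstream of the first copy and those of HomolE upstream of the second, as printed above. The window of the second copy also holds CAGTCACG, which differs from HomolD in its last letter.

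Next came rpl37 (-0.67 and -1.25, mean -0.96), rps25-1, a copy of the small-subunit protein eS25 (-1.07 and -0.84, mean -0.95), and rpl31, which encodes eL31 (-1.18 and -0.64, mean -0.91). The smallest called falls were those of rpl18-2 (-0.67), rps3a-2 (-0.67), rps13 (-0.64), rpl25a (-0.63), rps28-1 (-0.62) and rpl30 (-0.62). Of the 19 genes 14 belonged to the large and 5 to the small subunit, while the medians of the subunits were -0.26 and -0.28.

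Families with 3 copies by array name showed how far features of the same number went together. The rpl8 genes, which encode uL2 near the catalytic centre of the large subunit, had means of -0.08, 0.03 and -0.09 for rpl8-1, rpl8-2 and rpl8-3. None was called, although their upstream windows differ in which exact match they hold. The rps4 genes were at -0.06, -0.18 and -0.15 and the rpl7 genes at -0.26, -0.21 and -0.45. In the rpl24 family rpl24-3 was at -0.60 (adjusted p = 0.0562), and rpl24 and rpl24-2 were at 0.19 and 0.14. The names rpl7-3 and rpl24-3 matched no single RefSeq gene, so whether they are true copies of these families is not known here. Over 44 pairs of copies the median difference between copies was 0.16, and over the 17 pairs more than 90% identical it was 0.11.

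Genes with an intron lay lower than those without, at a median of -0.42 for 54 genes (13 fell) against -0.14 for 59 genes (4 fell). Genes with 1 copy on the array had a median of -0.39 (7 of 23 fell) and those with 2 or 3 copies -0.22 (12 fell). Copies were counted by array name here and below. By that count rpl35a has 1 copy, although RefSeq names it rpl35A01 and names rpl37-1 rpl35A02. Members with HomolD were at -0.21 and those without at -0.33. These are descriptions with no test, and the groups overlap in their quartiles.

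Gene length moved with this ratio over the whole genome. Among 4482 other ORFs with a RefSeq length, length and percentile rank had a Spearman correlation of 0.47 across genes, and the members were short, with a median gene length of 686 bases against 1850. Other ORFs under 1000 bases, 556 in number, had a median rank of 0.23, below the 0.35 of the ribosomal protein genes. From 500 to 750 bases the medians were -0.30 for 46 members and -0.45 for 183 other ORFs, and from 750 to 1000 bases they were -0.19 for 36 members and -0.52 for 293 others. Below 500 bases the order turned, at -0.57 for 17 members and -0.44 for 80 others. In these 3 classes, from the shortest up, the share of members that fell was 41.2%, 10.9% and 11.1%, beside 31.2%, 35.0% and 35.2% of the other ORFs. Of the other ORFs of those lengths only 2.5%, 1.64% and 2.39% rose, so the lack of members that rose was close to what other short genes showed. From 500 to 1000 bases the ribosomal protein genes thus lay above other genes of like length. They were also brighter than most features, at a median brightness rank of 0.80 against 0.49, and the part of brightness was not tested.

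**Figure D2:**
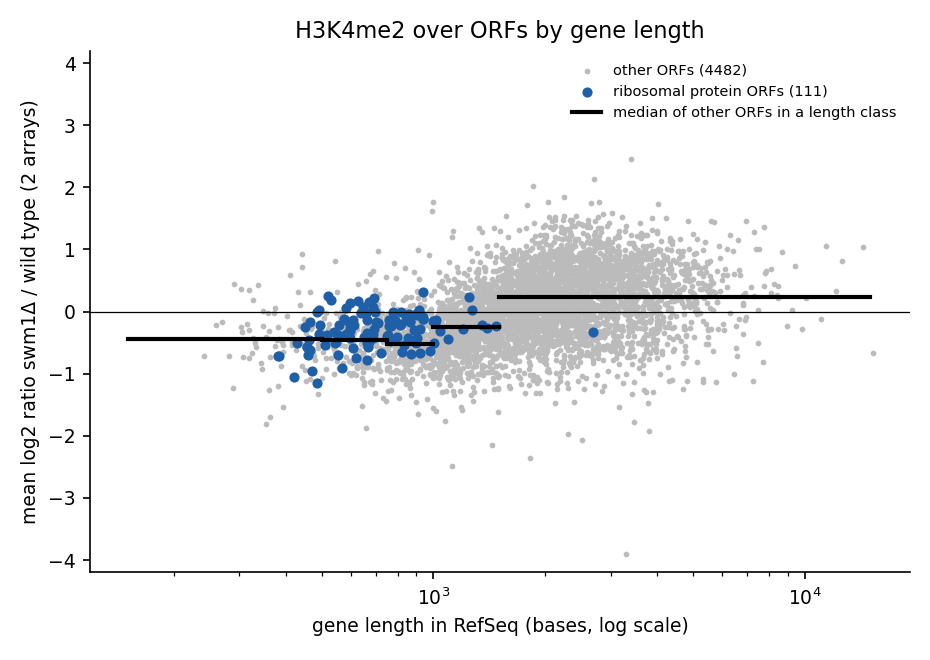
Mean log2 ratio of H3K4me2 in swm1Δ over wt for each ORF (vertical) against its RefSeq gene length in bases (horizontal, log axis), ribosomal protein genes marked over all others. Short genes of both kinds lie mostly below 0, and the other ORFs over 1500 bases have a median of 0.23.

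In the intergenic features named for these genes no such shift was seen. The member medians were 0.03 on C1 and -0.07 on C2, beside 0.02 and -0.00 for the others, and 36 members were below 0 and 36 above 0 on both arrays. Array C1 carried 1 spot per intergenic feature. By limma 2 members rose (all IGRs 4.03%) and 0 fell (all IGRs 1.53%), with 15 at an unadjusted p under 0.05 in either direction (11.5%, beside 16.0% of all IGRs).

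The intergenic feature of rpl17-2, a copy of the uL22 protein that lines the exit tunnel, was at 1.21 and 1.505 (mean 1.36 ± 0.21, 2.57-fold, adjusted p = 0.00262). It was also the only member to pass the rule of the methods upwards (all IGRs 1.95%), and 0 passed downwards (all IGRs 0.464%). Over its coding region rpl17-2 was at 0.16 and 0.48, the highest mean of all ORF members, and was not called. The intergenic feature of rpl37a-1 was at 0.97 and 0.84 (mean 0.90 ± 0.09, adjusted p = 0.0437), so the ratio of this gene was above 0 beside it and below 0 within it. The intergenic feature of rps3 was at -0.49 and -0.61 and was not called (adjusted p = 0.293). Over 118 genes the ORF and IGR means had a Spearman correlation of 0.11, the points sharing slides and hybridised DNA.

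H3K9me2 over the same ORFs had no call that survived adjustment. With the likely direction, the member median was -0.11 on B1 beside 0.13 for the other ORFs, and -0.32 on B2 beside -0.01. The arrays correlated at 0.06 over all ORFs and 0.20 over the members. By limma 0 members and 0 other ORFs were called, and 4 members had an unadjusted p under 0.05 (3.23%, beside 4.32% of all ORFs). Read by its own ORF label, array B1 would turn the difference between members and other ORFs from -0.34 to 0.18.

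By the rule of the methods 12 members were lower (9.68%, beside 3.77% of all ORFs) and 3 higher (all ORFs 3.62%). These counts rest on the reading of array B1, since by its own ORF label 2 members were lower (1.61%, beside 2.66% of all ORFs) and 2 higher (1.61%, beside 3.58%). With the likely direction the lower ones were rpl1-2, rpl22, rpl25a, rpl34-2, rpl35a, rps7, rps10-2, rps15-1, rps15-2, rps16-1, rps20 and rps27. The lowest was rpl22, at -3.55 on B1 and -1.28 on B2, and rps7, which encodes eS7, was at -2.16 and -1.66. The higher ones included rpl19-1 (0.66 and 2.53) and rpl24-3 (2.24 and 1.38). The adjusted p of each of the values given was 0.928. For rps3, low in H3K4me2, the H3K9me2 arrays disagreed in sign, at -4.05 and 0.71.

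In the intergenic features the median difference between 125 members and the others was -0.04 for H3K9me2, from deposited ratios centred on each array's median. The arrays correlated at 0.01. By limma 0 of 4900 features were called, and 4 members had an unadjusted p under 0.05 (all IGRs 5.08%). The rule of the methods passed rpl37 higher (1.19 and 1.32, all IGRs 2.35%) and rpl13a-1, rps2, rps20 and rps3 lower (all IGRs 3.0%). Of these rps20 was at -2.71 and -1.01, low here as over its coding region. The array means of rps3 were 0.61 and -1.10, so its spots passed the rule although its arrays did not share a sign.

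Hrp3-myc gave the largest shift of the ribosomal protein genes, on 2 of the 3 arrays. The member median, as log2 of bound over input DNA centred on each array, was -0.35 on the first array, 0.95 on the second and 1.18 on the third, where the other ORFs were at 0.01, -0.02 and -0.01. The members' median percentile ranks were 0.29, 0.89 and 0.95. On the second array 121 of 124 members were above 0 and on the third 122, while on the first 88 were below 0.

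**Figure D3:**
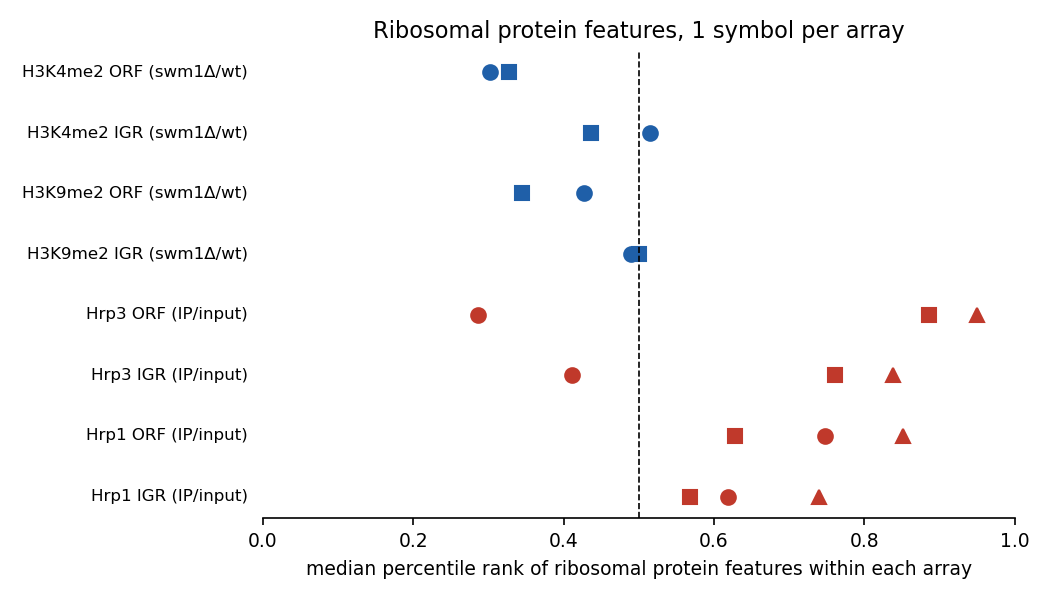
Median percentile rank of the ribosomal protein features within each array (0 to 1, where 0.5 is the middle of all features), for every mark and protein in ORF and IGR features, with circles, squares and triangles for the arrays in label order. For Hrp3 in ORFs the ranks are 0.29, 0.89 and 0.95, and for H3K4me2 in ORFs 0.30 and 0.33.

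With all 3 arrays, limma called 0 members, 22 had an unadjusted p under 0.05 (17.7%, beside 6.61% of all ORFs), and 1, rpl44, reached a mean percentile rank of 0.92, the cut-off for this set (all ORFs 0.45%). The methods rank by the median over data points, and by that measure 31 of 124 members reached the cut-off (all ORFs 4.34%). Without the first array 105 members were called higher (84.7%, beside 14.6% of all ORFs) and 0 lower, and 62 reached the rank (beside 6.51% of all ORFs). Then 120 members were above 0 on both arrays (96.8%, beside 36.8% of all ORFs). The median of the member means was 1.12, or 2.18-fold above the array median, and 75 members were at least 2-fold above it (60.5%, beside 7.8% of all ORFs). With the sign of the first array turned, 19 were called higher (15.3%, beside 1.76% of all ORFs). The median of the member means was 0.60 with all 3 arrays and 0.875 with the sign turned, and 5 and 46 members were then at least 2-fold above the array median (2.5% and 4.6% of all ORFs).

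The members with the highest and lowest values differed by over 2 on the log2 scale. rpl44 had the highest mean rank over the 3 arrays, at 0.95, 1.28 and 1.86, and was 1 of 35 members above 0 on every array (28.2%, beside 14.9% of all ORFs). Next in mean rank over the 3 arrays were rpl17-2 (0.82, 0.54 and 0.99), rps15a-1 (0.51, 0.79 and 1.16) and rps3a-1 (0.61, 0.63 and 1.17). The lowest in rank were rpl18-2 (-2.54, -0.04 and -0.42), rpl3-b, a copy of the uL3 protein (-2.08, -0.47 and 0.37), rpl16c (-0.72, -0.34 and 0.30) and rpl7-3 (-0.68, 0.16 and 0.60).

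A few more genes, picked once their values were known, had the highest levels without the first array. For rpl7a the arrays gave -0.57, 2.13 and 2.32, a mean of 2.23 ± 0.13 over the last 2 arrays (4.68-fold above the array median, adjusted p = 6.81e-07). For rpl22, whose window with HomolE is printed above, they gave -0.63, 2.35 and 2.04 (mean 2.20 ± 0.22, 4.58-fold, adjusted p = 8.24e-07). For rpl29 they gave -1.25, 1.90 and 1.87 (mean 1.88 ± 0.03, adjusted p = 4.51e-06). With all 3 arrays none of these genes was called. They were called with the sign turned, but turning gives their negative first-array values the sign of the others by construction. Those calls therefore add no support. In rps27 the last 2 arrays differed widely, at 3.19 and 0.81. The genes with the lowest H3K4me2 ratios were not exceptional here, rps3 being at 0.27, 1.25 and 1.09 and rpl37a-1 at 0.02, 1.29 and 1.19.

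**Figure D4:**
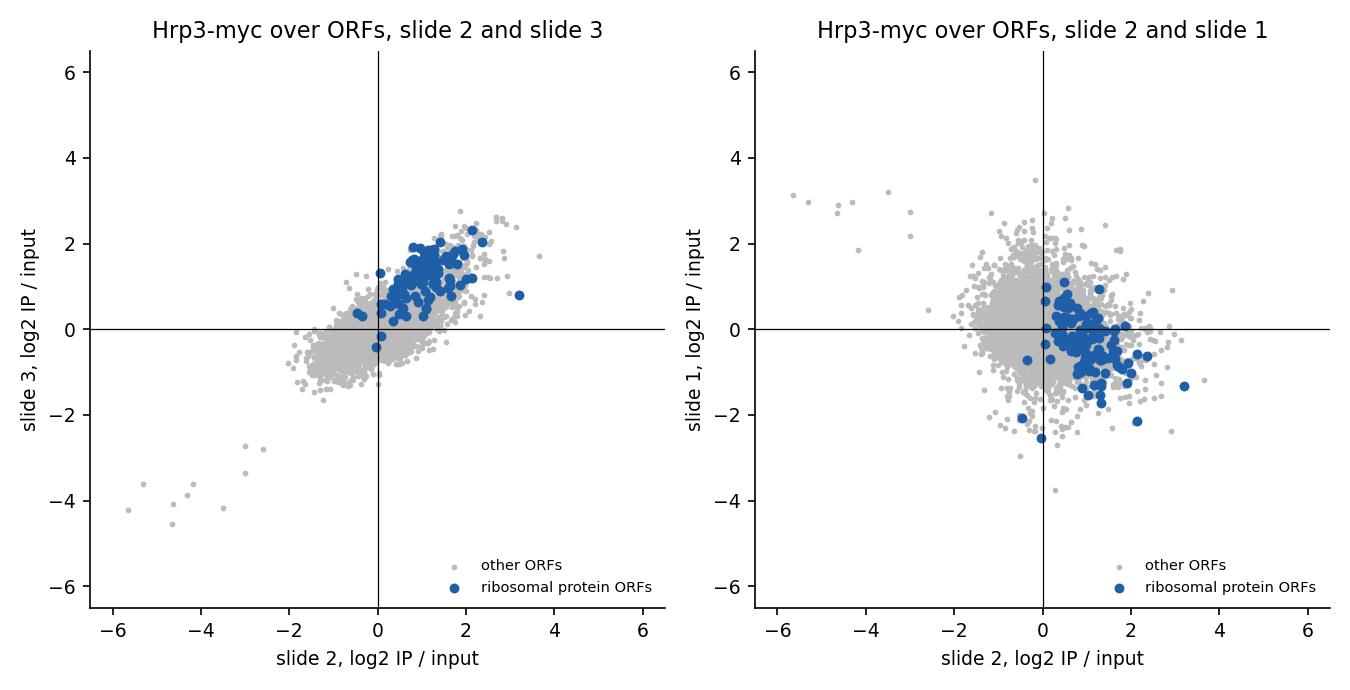
Log2 ratio of Hrp3-myc bound DNA over input for each ORF, with the second array (horizontal) against the third and against the first (vertical). The 124 ribosomal protein genes are marked over the other ORFs. The marked points lie high on the second and the third array, with medians of 0.95 and 1.18, and low on the first, with a median of -0.35.

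The Hrp3 shift in ORFs was of like size in both subunits and, without the first array, with and without either box. In that setting 57 of 71 features of the 60S and 48 of 53 of the 40S subunit were called. The median was then 1.11 with HomolD and 1.15 without, and 1.16 with HomolE and 1.07 without. Genes with 1 copy had a median of 1.42 (21 of 23 called) and those with 2 or 3 copies 1.05 (84 called). With all 3 arrays the medians were 0.58 for the 60S and 0.61 for the 40S subunit, 0.63 with HomolD and 0.57 without, and 0.81 and 0.57 for 1 copy and for more. With the sign turned they were 0.88 and 0.79, 0.75 and 0.92, and 1.16 and 0.775. Without the first array, other short ORFs did not share the shift. Below 500 bases the medians were 1.37 for members and -0.28 for other ORFs, from 500 to 750 bases 1.15 and -0.12, from 750 to 1000 bases 1.13 and -0.11, and from 1000 to 1500 bases 0.70 and -0.06. The rpl8 copies were at 0.65, 1.16 and 0.68 without the first array, and the first 2 of them were called.

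The brightness of the arrays differed. Spots at least 1.5 times above background were 89.7%, 72.0% and 99.4% of all ORF spots on the first, the second and the third array. With the dimmer spots left out, as well as the first array, 88 of 96 members were called (91.7%, beside 17.9% of all ORFs).

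Other genes of protein synthesis are given for context. Without the first array all 7 genes of the ribosomal P stalk were called higher for Hrp3 in ORFs, with a median of 1.56, as were both elongation factor genes measured, tef3 (1.27) and tef5 (1.87). Of all ORFs 14.6% were called higher in that setting. Of 19 genes of translation initiation 10 were called higher, with a median of 0.67. Of 8 genes of ribosome biogenesis and RNA polymerase I 4 were, with a median of 0.46, and of 4 kinase genes that regulate ribosomal protein synthesis 0 were, with a median of 0.18. With all 3 arrays none of these genes was called, the P stalk median was 0.92 and that of the initiation genes 0.45. The number at an unadjusted p under 0.05 was then 8 of 40, beside 6.61% of all ORFs. For H3K4me2 in ORFs the P stalk gene rpp2-2 fell (-0.71), tif471 and tif225 (initiation), nuc1 and rpa2 (RNA polymerase I) and psk1 and sck1 (kinases) rose, and the kinase gene tor2 fell (-1.11). No elongation gene was called there. Such H3K4me2 calls were common, as 15.7% of all ORFs rose and 12.8% fell. At an unadjusted p under 0.05 stood 15 of the 40 listed genes, beside 42.1% of all ORFs, so these calls do not set the listed genes apart.

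On each array the Hrp3 shift of the intergenic features had the direction of the ORF shift, so the first array again ran against the other 2. The member medians were -0.17, 0.53 and 0.71 beside 0.00, -0.02 and -0.02 for the others, and the median ranks were 0.41, 0.76 and 0.84. With all arrays limma called 0 members, 10 had an unadjusted p under 0.05 (all IGRs 4.17%), and only rps16-2 reached the mean rank of 0.94 (all IGRs 0.121%), while 7 reached it by the median over data points (5.34%, beside 2.82% of all IGRs). Without the first array 45 members were called higher (34.4%, beside 11.4% of all IGRs) and 13 reached the rank (all IGRs 4.23%). In that setting 1 member, rpl30-2, was called lower (all IGRs 6.43%). With the sign turned 4 were called higher, rpl8-1, rpl22, rpl26 and rpl36-2 (all IGRs 2.36%).

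The intergenic feature of rps16-2, named for a copy of the small-subunit protein uS9, was high on all 3 arrays, at 1.29, 1.81 and 1.82. That of rpl30-2 was low on the last 2, at 0.26, -0.92 and -1.06. The feature of rpl8-1, picked once its values were known, was at -1.32, 2.49 and 1.49, and its coding region was at 0.20, 0.38 and 0.91. Among 117 genes with both kinds of feature the ORF and IGR means without the first array had a Spearman correlation of 0.10. ORF and IGR arrays were centred separately and their probes differ, so levels were not compared between them.

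**Figure D5:**
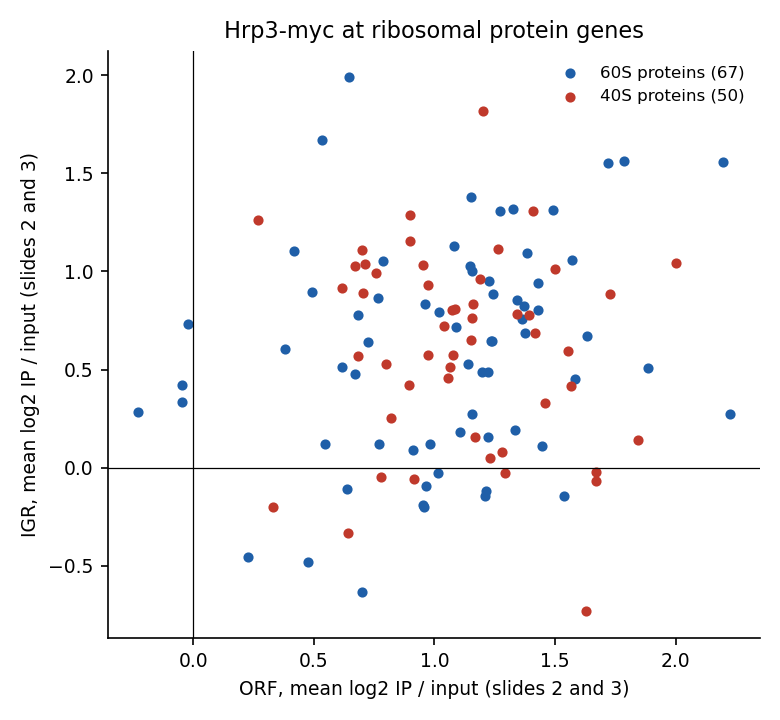
Mean log2 ratio of Hrp3-myc bound DNA over input without the first array, in the ORF (horizontal) and the IGR (vertical) of each of 117 ribosomal protein genes, by subunit. The points show little order, with a Spearman correlation of 0.10, and the axes are centred separately.

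The Hrp1-labelled arrays, which also carry the H3 label, gave a smaller shift in the same family. In ORFs the member medians were 0.28, 0.22 and 0.39 beside -0.01, -0.00 and -0.01 for the others, and the median ranks were 0.75, 0.63 and 0.85. The second array correlated with the others at -0.13 and -0.14, and those with each other at 0.56. With all arrays limma called 0 members, 19 had an unadjusted p under 0.05 (15.3%, beside 6.47% of all ORFs), and 4 reached the mean rank of 0.90 (all ORFs 0.941%) and 20 the same rank by the median over data points (16.1%, beside 3.83% of all ORFs). Without the second array 20 were called higher (16.1%, beside 3.87% of all ORFs) and 23 reached the rank (all ORFs 5.01%). With its sign turned, which is the reading of the H3 labels, 0 were called higher (all ORFs 0.0205%).

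The highest mean ranks over the 3 arrays were led by rpl13a-2 (0.98, 1.19 and 0.73) and rpl29 (0.88, 0.79 and 1.05), high on every array. The lowest included rpl3-b (-0.10, -0.83 and -0.25) and rpl7-3 (-0.80, -0.28 and 0.12), which were also among the lowest for Hrp3. In rpl44 the values were 0.74, 0.41 and 1.15. Over the 124 ORF members the Hrp3 and Hrp1-labelled means, each without its opposed array, had a Spearman correlation of 0.58 (0.30 with all arrays and 0.38 with the opposed arrays turned), the points sharing probes and array design.

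In the intergenic features the Hrp1-labelled medians were 0.17, 0.17 and 0.28 beside -0.00, -0.00 and -0.01, with ranks of 0.62, 0.57 and 0.74. With all arrays limma called 0 members, 6 had an unadjusted p under 0.05 (all IGRs 5.78%), and 2 reached the mean rank (all IGRs 0.786%) and 12 that rank by the median over data points (9.16%, beside 4.21% of all IGRs). Without the second array 15 were called higher (11.5%, beside 5.24% of all IGRs), 5 were called lower (3.82%, beside 5.56%), and 17 reached the rank (all IGRs 6.11%). With the sign turned 0 were called higher (all IGRs 0.0403%). The feature of rps16-2 was again high on all 3 arrays, at 0.88, 1.04 and 0.75. Those called lower without the second array were rpl7a, rpl30-2, rpl34-2, rpl37 and rps24-1, and rpl30-2 was at -0.89, 0.85 and -1.29.

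Read as deposited under the H3 label, the same arrays ranked 99 ORF members at medians of 0.69, 0.50 and 0.64 with the swapped array turned. For 102 IGR members the medians were 0.66, 0.72 and 0.54. The deposited Hrp and H3 values follow the brightness of a single dye, so they rank signal and not bound over input DNA. The turned array correlated with the others at -0.43 to -0.66, so no test was made on them.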

How the data were processed

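The rule for members used names only, but the family and the gene lists were chosen with earlier results of these data known. The authors deposited scanner files with the median signal intensity and background intensity of each spot. Their tables hold deposited log2 ratios for methylation (Lowess, GeneSpring) and deposited log10 values for Hrp binding, and the H3 tables hold deposited log2 values. Scanner software and genome build are not given in the sources used here. The first H3K9me2 IGR array had no scanner intensities in this work, so both H3K9me2 IGR arrays rest on deposited ratios.

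Intensities were corrected with normexp (offset 50) in limma 3.58.1 under R 4.3.3. Methylation arrays were loess normalized and Hrp arrays centred on the median. Spots of a feature were averaged per array, and the array means were tested against 0 with lmFit and eBayes, two-sided, with Benjamini-Hochberg adjustment over all features and a threshold of 0.05. The number of arrays limits the precision, and the fit was tested on simulated arrays with 200 changed features. Among 4886 simulated H3K4me2 ORF features all 200 changed by 8 times the spread were called and 0 of 200 changed by 1 log2 unit, with 11 and 0 false calls. The simulation changed fewer features than were called in the data (766 higher and 625 lower). Members were called in the data at smaller means, such as -0.62 for rpl30. The simulation therefore does not give the smallest change that could be called. Sequences and gene structures came from RefSeq with Python 3.11.15 and pandas 2.3.3.

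The rule for named genes took the 6 highest and 6 lowest called members, or, without calls, the 3 highest and 3 lowest whose arrays shared a sign, the 4 highest and 4 lowest Hrp ranks, all members past the 2.0 rule, and families of 3 copies. Genes outside it are marked as picked once their values were known, are carried over from another comparison, or complete a list of called members. The list of mitochondrial ribosomal proteins matched 0 features. Expression arrays were not used here, and single values of a few members are not reported here. Of the alternatives, 16 were listed at the start and 5 were added after seeing the data.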

Additional observations from a re-analysis of the deposited data

How the results depend on the processing

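Of the family-level results under all alternatives, 148 values kept their direction and side of the threshold or stayed within the spread, 42 moved and 2 turned in sign. Counts of members below that have no share of all features beside them, here or above, show the effect of the processing only. For H3K4me2 in ORFs the members that fell numbered 7 without loess and 12 with the deposited ratios, and 16 passed the rule of the methods at 1.5 (12.9%, beside 9.99% of all ORFs), with 0 higher (all ORFs 12.3%). The difference of medians was -0.269 to -0.335 with 1 array left out and -0.38 without paralogues of the same number. For H3K4me2 in IGRs the members that rose numbered 1 without loess, 1 with plain background subtraction, 1 with an intensity trend and 0 with the deposited ratios, and at 1.5 the rule passed 3 higher and 1 lower (all IGRs 4.96% and 1.98%). For H3K9me2 in ORFs the difference was -0.28 without loess, -0.41 with plain subtraction, -0.29 with the deposited ratios, -0.46 without paralogues, -0.24 to -0.31 with 1 array left out, and 0.18 with array B1 read by its ORF label. At 1.5 the rule passed 12 higher (9.68%, beside 10.1% of all ORFs) and 24 lower (19.4%, beside 9.33%), directions that rest on array B1, and by its ORF label 2 members instead of 12 were lower at 2.0 and 2 instead of 3 higher. In IGRs the difference with 1 array left out was -0.0293 or 0.0007, and at 1.5 the rule passed 4 higher and 8 lower (all IGRs 7.63% and 8.94%).

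For Hrp3 in ORFs the members called higher numbered 0 with all arrays, 19 with the opposed array turned, 105 without it and 88 without it and dim spots, so that 1 array decides the call, and they ranged from 0 to 105 with 1 array left out. In IGRs they numbered 18 with the deposited values, 4 turned, 45 without the array and 57 without it and dim spots, a range of 0 to 45 with 1 array left out. Members called lower there numbered 0 to 1 with 1 array left out (1 without the array, 2 also without dim spots). For the Hrp1-labelled ORF arrays the median rank was 0.514 with the deposited values, and the members called higher numbered 20 without the opposed array, a range of 0 to 20. In IGRs 28 were called higher and 9 lower with the deposited values, and 15 higher and 5 lower without the array, ranges of 0 to 15 and 0 to 5. The deposited Hrp values rank a single dye, and the shares of all features called with them are not given here. Nor is the share of all IGRs called for Hrp3 without dim spots. The cause of the other changes was not tested. No paired analysis was possible because each ratio is already formed within 1 array and no groups of arrays with shared replicate numbers were compared by a test.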
